A study of Mus musculus with 15 samples.

Results

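The genes described here are 10 that encode MHC class I, the machinery that loads it with peptide, the inducible proteasome subunits and the transactivator of these genes: H2-K1, H2-D1, B2m, Tap1, Tap2, Tapbp, Psmb8, Psmb9, Psmb10 and Nlrc5. They were chosen by name and not by their measured values, and all 10 were found among the 55335 genes listed in the table. All 10 also passed the filter of a mean of at least 1 FPKM (fragments scaled to transcript length and to the mapped fragments of the sample), which left 11419 genes for testing. The levels were measured by RNA-seq in tumor-associated macrophages (TAMs) sorted from orthotopic hepatocellular carcinoma (HCC) in C57BL/6 mice. The tumors were grown in the liver from Hepa1-6 cells, a mouse hepatoma line that had been given luciferase and lentiviruses. The miRNA was thus overexpressed in the tumor cells before they were injected, and its level in the macrophages is not given in the sources used here. Of the 15 samples, 5 came from tumors of control cells (control), 5 from tumors overexpressing miR-144 and 5 from tumors overexpressing miR-451a, and no sample received any other treatment. Whether each sample was a separate mouse is not stated, so p-values measure the spread between these samples, which may be technical. The study states fewer replicates for its RNA-seq comparison than the samples per group used here, and whether some samples share a mouse is not stated.

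MHC class I presents short peptides from inside the cell to CD8+ T cells. Proteasomes cut proteins into peptides, the TAP transporter carries the peptides into the endoplasmic reticulum, and tapasin holds the empty class I molecule at TAP until a peptide is bound. Interferons switch on a set of inducible catalytic subunits, which replace the constitutive ones to form the immunoproteasome, and they also raise class I transcription in part through NLRC5. Macrophages express this pathway widely and can present tumor antigens.

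The samples carried the markers of macrophages. All 10 macrophage markers had a mean of at least 1 FPKM in every group, with a summed level of 10699 to 11639 FPKM in control, 19035 to 20566 FPKM in miR-144 and 18973 to 19776 FPKM in miR-451a TAMs. Every marker of T cells, NK cells, B cells, neutrophils, dendritic cells, hepatoma cells and erythroid cells had a mean under 1 FPKM in every group, Cd3e, Cd3g, Ncr1 and Eomes were listed at 0 in all samples, and so were all 5 hepatocyte markers. Summed FPKM of all genes was 300620 to 307552 in control, 285154 to 295105 in miR-144 and 283362 to 290739 in miR-451a TAMs. Lyz2 made up most of the macrophage sum (6527 to 7411 FPKM in control, 12408 to 14257 FPKM in miR-144 and 12111 to 13261 FPKM in miR-451a TAMs). Cd68 went against the sum, with 1378 to 1504 FPKM in control, 882 to 943 FPKM in miR-144 and 835 to 976 FPKM in miR-451a TAMs, and Itgam, listed on 2 rows, overlapped with control on both rows for miR-451a and on 1 row for miR-144. The 4 endothelial markers summed to 3.70 to 4.29 FPKM in control, 4.67 to 5.02 FPKM in miR-144 and 4.65 to 5.93 FPKM in miR-451a TAMs, mostly from Kdr, the only one with a mean of at least 1 FPKM. The 3 NK cell markers, all but 1 listed at 0, summed to 0.192 to 0.416 FPKM in control, 0.0477 to 0.168 FPKM in miR-144 and 0.0323 to 0.137 FPKM in miR-451a TAMs. The 5 dendritic cell markers summed to 0.281 to 0.420 FPKM in control and 0.473 to 0.599 FPKM in miR-144 TAMs, and overlapped with control in miR-451a TAMs (0.401 to 0.658 FPKM). Macrophage, endothelial and NK cell marker sums therefore did not overlap between control and either miRNA group, nor did the dendritic cell sum for miR-144, and their part in the differences below was not tested. In bulk samples, fewer cells of a type and less RNA per cell cannot be told apart.

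The pathway split into genes that rose and genes that fell. Tap1, Tap2, Psmb8, Psmb9 and Nlrc5 rose in TAMs of both miRNA groups, H2-D1, B2m, Tapbp and Psmb10 fell in both, and H2-K1 was not called in either (limma, adjusted p under 0.05 over all tested genes). For miR-144, 5 of 10 were called higher where 47.1% of all tested genes were, and 4 of 10 were called lower where 20.1% were. For miR-451a, 5 of 10 were called higher against 48.1% of all tested genes, and 4 of 10 lower against 20.3%. The number that rose was thus close to the background, and neither number was tested. The median change of the 10 genes on the log2(FPKM + 1) scale was 0.05 for miR-144 and 0.10 for miR-451a, beside 0.13 and 0.14 for all tested genes. Because of this shift of all genes, values were also centred on the sample median, which changed the split to 4 higher and 5 lower in both comparisons. After centring, 7023 (miR-144) and 7213 (miR-451a) of the 11419 tested genes were called, and 50.01% and 49.6% of those were higher. Both comparisons use the same control samples, so they do not count as independent repeats.

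The samples of the groups did not overlap for 8 of the 10 genes. For miR-144, the 5 genes that rose had no overlap with control, which held for 37.9% of all tested genes in that direction, and 3 of the 4 that fell had none, which held for 16.0%. For miR-451a, the numbers were again 5 and 3, against 38.8% and 16.4% of all tested genes. Tapbp was the gene that fell and overlapped.

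**Figure D1:**
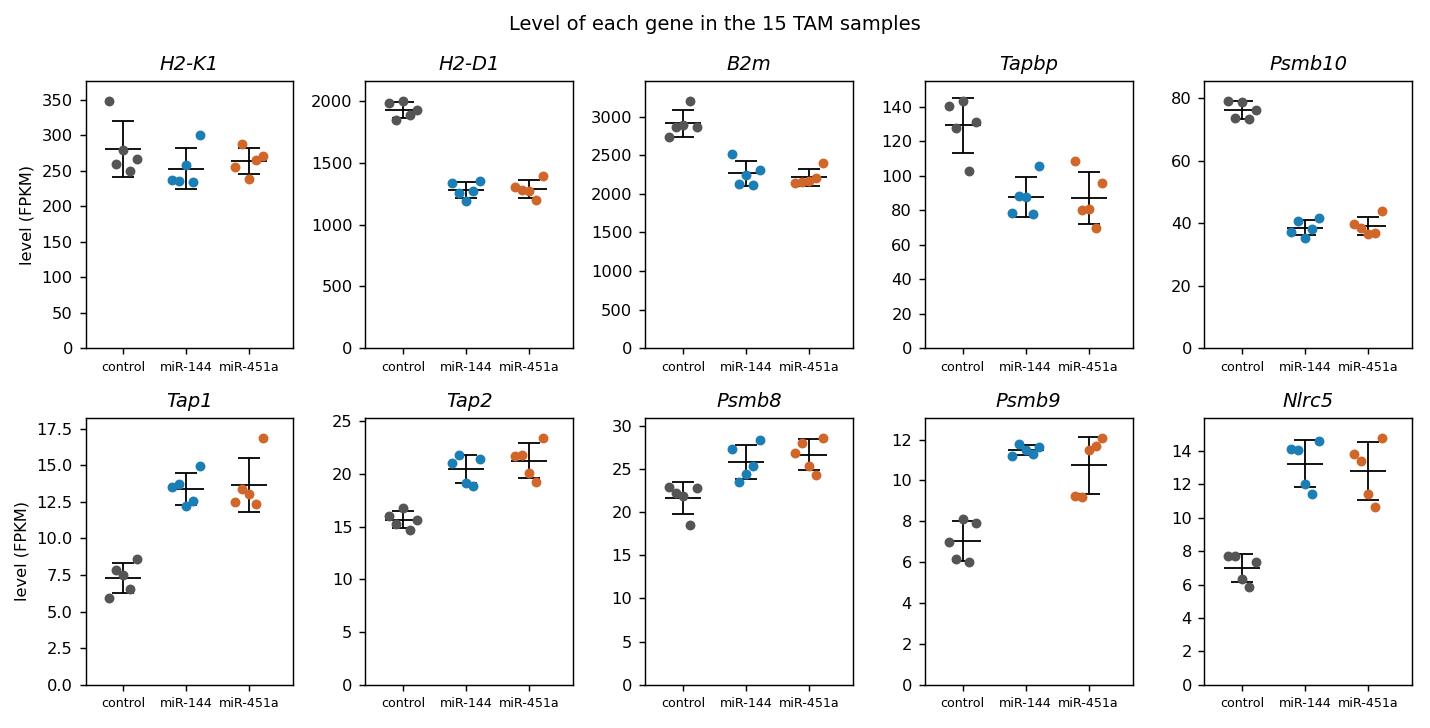
Level in FPKM (vertical axis, from 0) of each gene in the 15 TAM samples, with replicates 1 to 5 from left to right in each group, and bars for the mean ± SD. The upper row holds the genes that fell or were not called and the lower row the genes that rose, and only H2-K1 and Tapbp have miRNA samples within the range of the control samples.

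The classical class I heavy chains behaved unequally. H2-D1, which encodes the H2-D heavy chain, lay on chromosome 17 (35262730 to 35267499, plus strand, GRCm38) and was measured in control TAMs at 1987, 1847, 2004, 1887 and 1933 FPKM in replicates 1 to 5. It was at 1335, 1260.1, 1192, 1274 and 1353 FPKM in miR-144 TAMs, and at 1305, 1279, 1274, 1198 and 1397 FPKM in miR-451a TAMs. All miRNA samples were below all control samples. H2-D1 was 1.51-fold lower for miR-144 (log2 fold change -0.59, SE 0.04, limma adjusted p = 1.63e-08) and 1.497-fold lower for miR-451a (-0.58, SE 0.04, adjusted p = 1.85e-08). Quantile normalization gave a smaller change of -0.30 in both comparisons (adjusted p = 0.001 and 0.00109).

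H2-K1, the other classical heavy chain of this strain (chromosome 17, 33996017 to 34000347, minus strand), was at 349, 260.3, 279, 250.3 and 267 FPKM in control TAMs. It was at 237, 236, 259, 234 and 301 FPKM in miR-144 TAMs and at 256, 289, 239, 265 and 271 FPKM in miR-451a TAMs. The groups overlapped, and control replicate 1 was the highest of the 15 samples. The log2 difference was -0.15 for miR-144 (95% confidence interval -0.34 to 0.04, limma adjusted p = 0.162) and -0.08 for miR-451a (-0.28 to 0.11, adjusted p = 0.418). The call for H2-K1 depended on the setting. Median centring gave -0.28 (adjusted p = 0.0147) for miR-144 and -0.23 (adjusted p = 0.0394) for miR-451a, and leaving out miR-144 replicate 5 gave -0.21 (adjusted p = 0.0394). Without control replicate 1, the difference shrank to -0.066 (adjusted p = 0.446) for miR-144 and -0.00431 (adjusted p = 0.962) for miR-451a, and without miR-451a replicate 3 the latter was -0.050 (adjusted p = 0.657).

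The H2-K1 level as a fraction of the H2-D1 level was therefore higher in both miRNA groups, at 0.145 ± 0.0172 (SD, n = 5) in control, 0.198 ± 0.0205 in miR-144 and 0.205 ± 0.0173 in miR-451a TAMs. Control samples lay between 0.133 and 0.176, miR-144 samples between 0.178 and 0.222 and miR-451a samples between 0.188 and 0.226. Reads from these genes can be confused, because 8.11% of the 50-base stretches of the longest H2-K1 transcript and 14.3% of those of H2-D1 also occur in other genes. The genes sharing most were the class I genes H2-D1, H2-Q1 and H2-T23 for H2-K1, and H2-Q1, H2-Q7 and H2-Q6 for H2-D1.

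The promoters of this pair are shown because they hold the same run of letters that matches a motif searched here. The 250 bases before the RefSeq start (GRCm38.p6) are printed for H2-K1 (chr17:34000348-34000597, minus strand) and H2-D1 (chr17:35262844-35263093, plus strand), with capitals for matches to the enhancer A type NF-kB site (searched on either strand as 4 G, any 3 bases and 3 C, where matches may overlap).
H2-K1: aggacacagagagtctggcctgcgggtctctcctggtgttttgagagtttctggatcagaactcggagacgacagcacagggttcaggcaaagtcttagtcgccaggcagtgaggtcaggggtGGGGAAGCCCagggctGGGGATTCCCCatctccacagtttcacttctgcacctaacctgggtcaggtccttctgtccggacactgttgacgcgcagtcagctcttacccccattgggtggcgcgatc
H2-D1: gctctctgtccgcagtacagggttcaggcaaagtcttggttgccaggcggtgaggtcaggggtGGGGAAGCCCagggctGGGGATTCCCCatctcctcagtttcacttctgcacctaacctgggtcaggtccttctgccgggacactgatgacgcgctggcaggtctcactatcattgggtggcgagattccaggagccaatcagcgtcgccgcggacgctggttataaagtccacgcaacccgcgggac
Both windows held the same run GGGGAAGCCCAGGGCTGGGGATTCCCC, which starts 127 bases upstream of the H2-K1 start used here, 141 bases upstream of the other H2-K1 start that RefSeq lists, and 187 bases upstream of the H2-D1 start. With this run in register, 166 of 190 bases (87.4%) were identical. A match to the motif occurred in 4.51% of the 32851 promoter windows of the same length, and it is a match of letters and not a measured site. The H2-D1 window lies within the gene span given above, whose annotated start is further upstream than the RefSeq start.

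B2m, which encodes the light chain that every class I molecule needs to fold (chromosome 2, 122147686 to 122153083, plus strand), had the highest level of the 10 genes. It was at 2736, 2871, 2894, 3205 and 2860.0 FPKM in control TAMs, at 2522, 2125, 2243, 2111 and 2314 FPKM in miR-144 TAMs and at 2144, 2148, 2172, 2209 and 2402 FPKM in miR-451a TAMs. No miRNA sample reached the lowest control sample. B2m was 1.29-fold lower for miR-144 (log2 fold change -0.37, SE 0.06, limma adjusted p = 3.12e-05) and 1.32-fold lower for miR-451a (-0.39, SE 0.06, adjusted p = 1.35e-05). The call depended on the scaling, since quantile normalization gave -0.07 (adjusted p = 0.414) and -0.09 (adjusted p = 0.30).

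B2m was the 1 gene of the 8 with a promoter entry whose window matched the core of the interferon-stimulated response element (searched on either strand as GAAA, any 2 bases and GAAA), shown in capitals in its 250 upstream bases (chr2:122147437-122147686, plus strand).
B2m: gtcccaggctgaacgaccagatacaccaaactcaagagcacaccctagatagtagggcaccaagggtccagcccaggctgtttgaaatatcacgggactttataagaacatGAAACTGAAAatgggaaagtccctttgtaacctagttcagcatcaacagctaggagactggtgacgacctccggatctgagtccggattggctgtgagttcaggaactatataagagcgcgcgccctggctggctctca
The match lies 139 to 130 bases upstream of the start. The motif occurred in 2.98% of all windows. Only this pattern was searched, so a window without a match may still hold a variant of the element.

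On chromosome 17, 4 genes of the pathway lie side by side, and all 4 rose. Psmb9, Tap1, Psmb8 and Tap2 span 34.3 kb (34181987 to 34216321), and the annotation has no other protein-coding gene there. Tapbp, H2-K1 and H2-D1 lie outside this cluster, at 253, 182 and 1046 kb from it, and none of them rose.

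Tap1 encodes a chain of the peptide transporter (34187553 to 34197225, plus strand). It was at 5.95, 7.84, 7.496, 6.57 and 8.58 FPKM in control TAMs, at 13.5, 13.7, 12.2, 12.5 and 14.95 FPKM in miR-144 TAMs and at 12.5, 13.3, 13.1, 12.4 and 16.9 FPKM in miR-451a TAMs. Every miRNA sample was above every control sample. Tap1 was 1.84-fold higher for miR-144 (log2 fold change 0.80, SE 0.09, limma adjusted p = 2.06e-06) and 1.87-fold higher for miR-451a (0.82, SE 0.09, adjusted p = 1.49e-06).

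Tap2 encodes the partner of TAP1 in the transporter (34203527 to 34216321, plus strand). It was at 16.0, 15.2, 16.8, 14.7 and 15.6 FPKM in control TAMs, at 21.1, 21.8, 19.2, 18.8 and 21.4 FPKM in miR-144 TAMs and at 21.7, 21.8, 20.1, 19.3 and 23.5 FPKM in miR-451a TAMs. The groups did not overlap, with a smaller step than for Tap1. Tap2 was 1.31-fold higher for miR-144 (log2 fold change 0.36, SE 0.06, limma adjusted p = 3.33e-05) and 1.36-fold higher for miR-451a (0.42, SE 0.06, adjusted p = 7.91e-06). Median centring gave 0.23 (adjusted p = 0.00257) and 0.27 (adjusted p = 0.000656). The Tap1 level as a fraction of the Tap2 level was 0.466 ± 0.0688 (SD, n = 5) in control, 0.654 ± 0.0279 in miR-144 and 0.640 ± 0.0533 in miR-451a TAMs, and its highest control value of 0.549 was below the lowest miR-144 value of 0.630 and the lowest miR-451a value of 0.576.

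Psmb9 encodes the inducible subunit beta1i (34181987 to 34187764, minus strand). It was at 6.96, 6.16, 8.09, 6.00 and 7.91 FPKM in control TAMs, at 11.2, 11.8, 11.5, 11.3 and 11.6 FPKM in miR-144 TAMs and at 9.23, 9.20, 11.5, 11.7 and 12.1 FPKM in miR-451a TAMs. The miR-144 samples lay close together, whereas replicates 1 and 2 of miR-451a were below the rest and still above control. Psmb9 was 1.63-fold higher for miR-144 (log2 fold change 0.64, SE 0.09, limma adjusted p = 8.6e-06) and 1.53-fold higher for miR-451a (0.55, SE 0.09, adjusted p = 4.14e-05).

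Psmb8 encodes the inducible subunit beta5i (34197721 to 34201454, plus strand). It was at 22.9, 22.2, 21.9, 18.5 and 22.8 FPKM in control TAMs, at 27.3, 23.5, 24.5, 25.4 and 28.4 FPKM in miR-144 TAMs and at 26.8, 28.0, 25.3, 24.3 and 28.6 FPKM in miR-451a TAMs. The gap between groups was narrow. Psmb8 was 1.19-fold higher for miR-144 (log2 fold change 0.24, SE 0.07, limma adjusted p = 0.00408) and 1.23-fold higher for miR-451a (0.29, SE 0.07, adjusted p = 0.00114). Relative to the shift of all genes it was not called, since median centring gave 0.11 (adjusted p = 0.165) and 0.14 (adjusted p = 0.0694).

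Psmb9 and Tap1 are read from opposite strands of 1 short interval, which is shown because both genes rose. Between their RefSeq starts lie 225 bases (GRCm38.p6, chr17:34187331-34187555, printed on the plus strand, Psmb9 to the left and Tap1 to the right), with capitals for the 1 match to the Y box (CCAAT, either strand).
Psmb9 to Tap1: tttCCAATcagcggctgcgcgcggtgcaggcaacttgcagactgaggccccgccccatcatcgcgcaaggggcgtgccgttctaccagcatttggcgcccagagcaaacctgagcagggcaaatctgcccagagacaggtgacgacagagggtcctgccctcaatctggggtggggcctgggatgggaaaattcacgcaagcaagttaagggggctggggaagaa
The match lies 8 to 4 bases upstream of the Psmb9 start. A CCAAT match is common and occurred in 33.8% of all windows. The genes also overlap in the GENCODE M21 annotation, with 5.79% of the exonic bases of Psmb9 in exons of Tap1 and 3.87% of those of Tap1 in exons of Psmb9, and 14.7% of Psmb8 and 18.5% of Tap2 exonic bases lie in exons of other genes. Whether the libraries kept the strand is not given in the sources used here, so reads in these stretches could belong to either gene.

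Psmb8 was the 1 gene with a match to the gamma-activated site (TTCNNNGAA, either strand), which is in capitals in its 250 upstream bases (chr17:34197945-34198194, plus strand).
Psmb8: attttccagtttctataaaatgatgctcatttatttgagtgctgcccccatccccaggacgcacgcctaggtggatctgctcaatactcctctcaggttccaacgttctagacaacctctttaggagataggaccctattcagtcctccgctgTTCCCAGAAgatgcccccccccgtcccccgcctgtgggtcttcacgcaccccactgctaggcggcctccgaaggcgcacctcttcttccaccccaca
The match TTCCCAGAA lies 97 to 89 bases upstream of the start. The motif occurred in 7.02% of all windows. The Psmb8, Psmb9 and Tapbp windows lie within the spans that GENCODE gives for these genes, which start further upstream than the RefSeq starts. The Tapbp window held only matches to CCAAT and the Psmb10 window held no match to any of the 6 motifs searched, which besides those above were the cAMP response element (TGACGTCA) and the X2 box (TGACGCA). Tap2 and Nlrc5 had no entry. Variants of these motifs were not searched, so a window without a match may still hold one.

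The other end of the loading complex went down. Tapbp encodes tapasin, which links TAP to class I (chromosome 17, 33915899 to 33929292, plus strand). It was at 141, 128, 143, 103 and 131 FPKM in control TAMs, at 78.2, 88.5, 87.9, 77.6 and 106 FPKM in miR-144 TAMs and at 109, 79.9, 80.7, 69.8 and 96.0 FPKM in miR-451a TAMs. Control replicate 4, miR-144 replicate 5 and miR-451a replicate 1 made the groups overlap. Tapbp was 1.48-fold lower for both miR-144 (log2 fold change -0.56, SE 0.12, limma adjusted p = 0.000859) and miR-451a (-0.57, SE 0.12, adjusted p = 0.000642). Of its exonic bases, 29.0% lie in exons of Gm19412 or Zbtb22.

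Psmb10 had the largest log2 difference of the 10 genes in the values as deposited, and it fell whereas the other inducible subunits rose. It encodes the inducible subunit beta2i and lies apart from them on chromosome 8 (105935735 to 105938444, minus strand). Psmb10 was at 79.2, 73.6, 78.9, 73.2 and 76.1 FPKM in control TAMs, at 37.2, 40.6, 35.4, 38.1 and 41.7 FPKM in miR-144 TAMs and at 39.7, 38.5, 36.6, 36.9 and 43.8 FPKM in miR-451a TAMs. The control and miRNA groups were far apart relative to their spread. It was 1.97-fold lower for miR-144 (log2 fold change -0.96, SE 0.05, limma adjusted p = 3.49e-10) and 1.95-fold lower for miR-451a (-0.95, SE 0.05, adjusted p = 4.05e-10). Rescaled to TPM, its log2 change was -0.91 and -0.88, smaller in size than those of Nlrc5 (0.96 and 0.92) and Tap1 (0.93 and 0.96).

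Nlrc5 encodes the transactivator of MHC class I genes and also lies on chromosome 8 (94434356 to 94527272, plus strand). It was at 7.73, 7.70, 6.33, 5.83 and 7.38 FPKM in control TAMs, at 14.1, 14.02, 12.0002, 11.4 and 14.6 FPKM in miR-144 TAMs and at 13.8, 13.4, 11.4, 10.6 and 14.8 FPKM in miR-451a TAMs. All miRNA samples were above all control samples. Nlrc5 was 1.89-fold higher for miR-144 (log2 fold change 0.83, SE 0.10, limma adjusted p = 2.03e-06) and 1.83-fold higher for miR-451a (0.79, SE 0.10, adjusted p = 3.66e-06). H2-D1, B2m, Tapbp and Psmb10 fell in the same samples in which Nlrc5 rose.

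**Figure D2:**
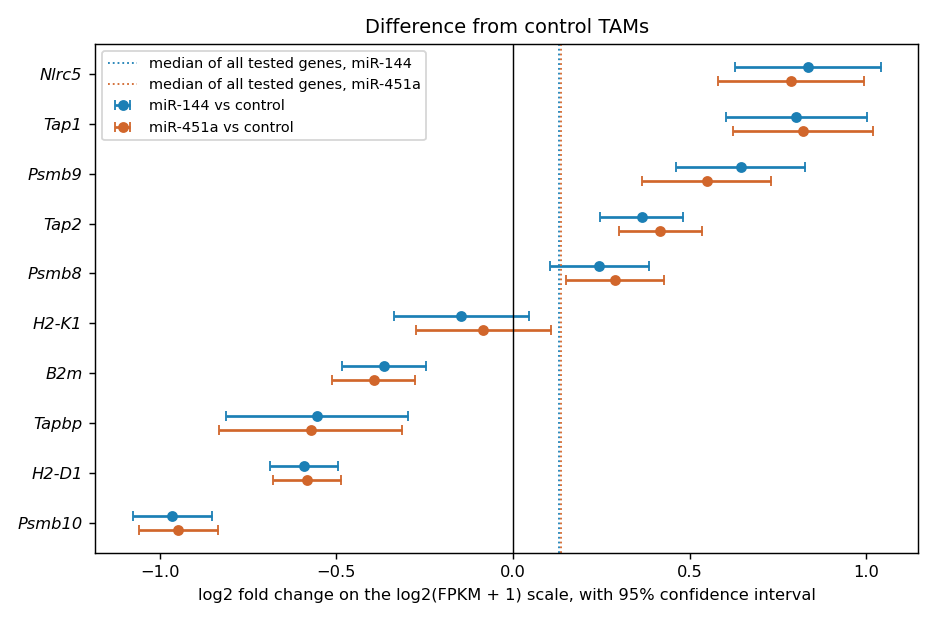
Log2 fold change of each gene on the log2(FPKM + 1) scale (horizontal axis) for miR-144 and miR-451a against control, as points with 95% confidence intervals from limma, beside dotted lines at the median of all 11419 tested genes (0.13 and 0.14). The points of both comparisons lie close together for each gene, from -0.96 for Psmb10 to 0.83 for Nlrc5 with miR-144.

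Each inducible subunit takes the place of 1 constitutive subunit, and at each place the balance moved. Psmb8 replaces Psmb5, Psmb9 replaces Psmb6 and Psmb10 replaces Psmb7. All 3 constitutive subunits fell in both comparisons. Psmb6 went from 96.2 FPKM in control to 48.7 and 47.3 FPKM in miR-144 and miR-451a TAMs (log2 fold change -0.97 and -1.01, limma adjusted p = 8.27e-11 and 4.73e-11). Psmb5 went from 64.9 to 47.8 and 47.2 FPKM (-0.43 and -0.45, adjusted p = 4.09e-07 and 2.52e-07). Psmb7 changed least, from 16.3 to 14.2 and 13.7 FPKM (-0.18 and -0.24, adjusted p = 0.000766 and 8.28e-05).

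At the Psmb9 place, the inducible share of the summed FPKM was 6.82% ± 1.0003 (SD, n = 5) in control, 19.1% ± 0.946 in miR-144 and 18.4% ± 1.23 in miR-451a TAMs. The ratio of Psmb9 to Psmb6 was 3.25-fold higher for miR-144 and 3.11-fold higher for miR-451a (log2 differences 1.70 and 1.64, exact permutation test, two-sided, p = 0.00794 and adjusted p = 0.0119 over 9 ratio comparisons for each). At the Psmb8 place, the share was 24.99% ± 1.72 in control, 35.0% ± 1.65 in miR-144 and 36.0% ± 1.203 in miR-451a TAMs. The ratio of Psmb8 to Psmb5 was 1.62-fold and 1.69-fold higher (log2 differences 0.70 and 0.76, exact permutation p = 0.00794 and adjusted p = 0.0119 for each).

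At the Psmb10 place, the share moved the other way, from 82.4% ± 0.692 in control to 73.0% ± 1.51 in miR-144 and 73.9% ± 2.49 in miR-451a TAMs. The ratio of Psmb10 to Psmb7 was 1.72-fold lower for miR-144 and 1.64-fold lower for miR-451a (log2 differences -0.79 and -0.71, exact permutation p = 0.00794 and adjusted p = 0.0119 for each). The p of 0.00794 is the smallest that 252 splits of 5 against 5 samples allow. With same-numbered samples as pairs, an exact sign-flip test gave adjusted p = 0.0804 for each of the 6 differences of the 3 ratios from control, above the threshold of 0.05, and 5 pairs allow no p below 0.0625. No miRNA sample overlapped a control sample in any of the 3 ratios. These ratios are computed within a sample, so a common scaling of all genes does not move them.

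As a result, the makeup of the inducible trio differed. Psmb10 made up 72.7% ± 1.36 (SD, n = 5) of the summed FPKM of the 3 inducible subunits in control, 50.9% ± 1.71 in miR-144 and 51.1% ± 1.02 in miR-451a TAMs. Psmb9 made up 6.68% ± 0.687, 15.1% ± 0.707 and 14.1% ± 1.85, respectively. These shares are of RNA and say nothing of assembled proteasomes.

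**Figure D3:**
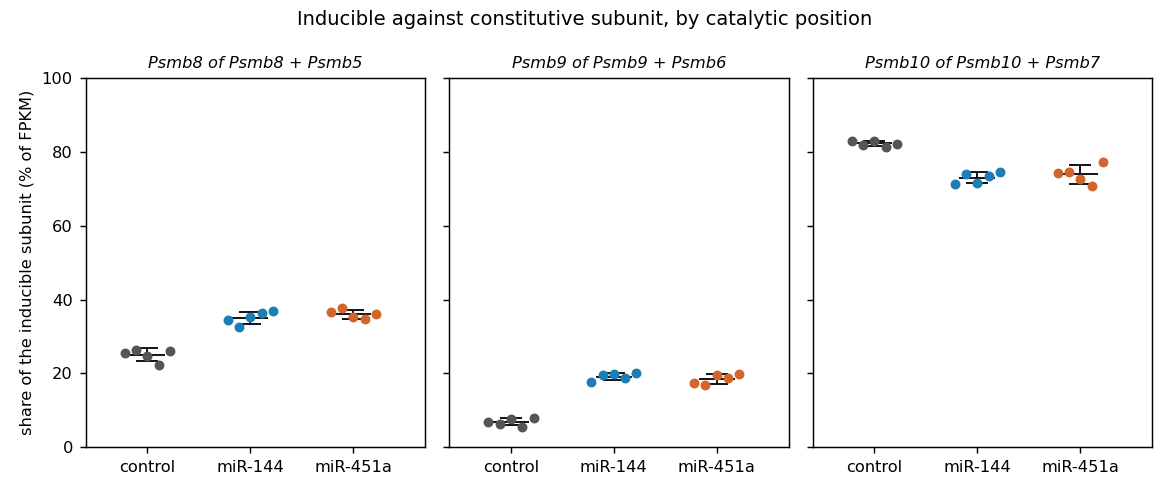
Share of the inducible subunit in the summed FPKM of the inducible and constitutive subunits (vertical axis, %) at each of the 3 catalytic places, as points for replicates 1 to 5 and bars for the mean ± SD. Psmb8 and Psmb9 take a larger share in both miRNA groups than in control (35.0% and 36.0% against 24.99%, and 19.1% and 18.4% against 6.82%), and Psmb10 a smaller share (73.0% and 73.9% against 82.4%).

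The order of the levels hardly changed between the groups. B2m, H2-D1, H2-K1, Tapbp, Psmb10, Psmb8 and Tap2 followed each other from the highest in all 3 groups, and within each group no neighbours among them overlapped. Tap1, Psmb9 and Nlrc5 stood at the low end at 6.99 to 7.29 FPKM in control and 10.7 to 13.6 FPKM in the miRNA groups, with overlapping samples. Psmb10 was at 76.2 FPKM beside 21.6 FPKM for Psmb8 in control TAMs, and at 38.6 beside 25.8 FPKM in miR-144 and 39.1 beside 26.6 FPKM in miR-451a TAMs.

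TAMs of the miRNA groups were not told apart from each other by any of the 10 genes. None was called between miR-451a and miR-144 (limma), and none had an unadjusted p under 0.05. Over all 11419 tested genes, 0% were called and 596 had an unadjusted p under 0.05. The log2 difference was largest for Psmb9, at -0.10 (95% confidence interval -0.28 to 0.09), and the interval was widest for Tapbp, at -0.28 to 0.24. The 3 subunit ratios differed by 0.06, -0.06 and 0.07 on the log2 scale for Psmb8, Psmb9 and Psmb10, with exact permutation p = 0.31, 0.333 and 0.508. With same-numbered samples as pairs, the exact sign-flip test gave p = 0.562, 0.0625 and 0.312. The value for Psmb9 (adjusted p = 0.0804) is the smallest that 5 pairs allow. These intervals bound the differences and do not show that the groups were alike.

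The wider pathway was followed in 6 lists with 100 genes, of which 90 were tested. In all lists together, 36 rose and 31 fell for miR-144 and 35 rose and 31 fell for miR-451a, against the background shares given above. Median centring changed this to 27 and 43 for miR-144 and to 28 and 46 for miR-451a. The shares above do not apply to that fit. In it, 7023 and 7213 of all 11419 tested genes were called, 50.01% and 49.6% of them higher.

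Among the other class I molecules, 7 of 13 rose and 3 fell in both comparisons, close to the shares of all tested genes (47.1% and 48.1% higher, 20.1% and 20.3% lower). Fcgrt, the neonatal Fc receptor that recycles IgG and albumin, rose from 19.5 to 47.0 and 50.4 FPKM (log2 fold change 1.21 and 1.31, limma adjusted p = 4.27e-07 and 1.66e-07). H2-T23, which encodes Qa-1, a ligand of inhibitory NK cell receptors, fell from 170 to 108 and 106 FPKM (-0.65 and -0.69, adjusted p = 1.08e-05 and 5.73e-06). H2-K2 changed by -0.73 and -0.75 and H2-M2 by -1.25 and -1.27, the latter from 2.602 to 0.501 and 0.478 FPKM.

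Of the 16 genes of peptide loading and trimming, 9 fell and 3 rose in both comparisons. Of all tested genes, 20.1% and 20.3% fell and 47.1% and 48.1% rose, and the list was not tested against these shares. Its median change was -0.29 and -0.30, beside 0.13 and 0.14 for all tested genes. Calr, the chaperone calreticulin that stands beside tapasin in the loading complex, fell from 516 to 238 and 224 FPKM (log2 fold change -1.12 and -1.20, limma adjusted p = 1.05e-12 and 4.1e-13). Pdia3, its ERp57 partner, changed by -0.49 and -0.54, Hspa5, the chaperone BiP, by -0.73 and -0.79, and Bcap31, which escorts class I out of the endoplasmic reticulum, by -1.01 and -1.04. Lnpep, the endosomal aminopeptidase IRAP, rose by 0.64 and 0.65. Thus Tapbp, Calr and Pdia3, the chaperones of the loading complex, were lower in the samples in which Tap1 and Tap2 were higher.

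Of the proteasome partners, 10 of 21 fell and 3 rose for miR-144, and 11 fell and 3 rose for miR-451a, where 20.1% and 20.3% of all tested genes fell and 47.1% and 48.1% rose. The subunits of the interferon-inducible activator PA28 moved apart by small amounts, with Psme1 at 0.17 in both comparisons (limma adjusted p = 0.00281 and 0.00252) and Psme2 at -0.15 and -0.21 (adjusted p = 0.00301 and 0.000168).

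Of 10 transactivation genes, 6 rose in each comparison and 1 and 0 fell, among them Rfx5, the promoter-binding partner of NLRC5, which rose by 0.50 and 0.57 on the log2 scale (limma adjusted p = 0.000194 and 5.88e-05). Of 14 interferon input genes, 9 rose and 3 fell for miR-144 and 8 rose and 3 fell for miR-451a. Of all tested genes, 47.1% and 48.1% rose and 20.1% and 20.3% fell, and neither list was tested against these shares. Ifngr1, a chain of the interferon gamma receptor, rose from 20.8 to 41.5 and 46.6 FPKM (log2 fold change 0.96 and 1.12, adjusted p = 5.52e-09 and 8.32e-10), whereas Ifngr2, the other chain of that receptor, fell from 50.6 to 40.5 and 40.1 FPKM (-0.31 and -0.33, adjusted p = 4.04e-08 and 2.22e-08).

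Other genes of the interferon input list fell or were not called. Socs1, the feedback inhibitor of JAK kinases, went from 4.75 to 0.243 and 0.267 FPKM (log2 fold change -2.21 and -2.18, limma adjusted p = 4.15e-13 and 4.2e-13). Jak2 changed by -1.10 and -1.02. Irf1, an interferon-induced factor that binds class I promoters, was not called (0.22, adjusted p = 0.132, and 0.25, adjusted p = 0.0896). Ifng was listed at 0 in all 15 samples and Ifnb1 reached at most 0.171 FPKM.

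Among genes of surface turnover and cross-presentation, 8 of 16 rose and 5 fell in both comparisons, a share of higher genes close to the 47.1% and 48.1% of all tested genes. Of all tested genes, 20.1% and 20.3% fell. Susd6, a membrane protein that takes class I to lysosomes, rose from 17.5 to 39.6 and 38.8 FPKM (log2 fold change 1.13 and 1.10, limma adjusted p = 3.01e-13 and 3.77e-13). March1, a ubiquitin ligase of surface antigen-presenting molecules, rose by 0.83 and 0.92 on the log2 scale, and Was, an actin regulator of phagocytic cells, by 0.84 and 0.88. Ifi30, the lysosomal thiol reductase GILT, fell from 211 to 74.0 and 75.9 FPKM (-1.50 and -1.46, limma adjusted p = 1.27e-12 and 1.57e-12).

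**Figure D4:**
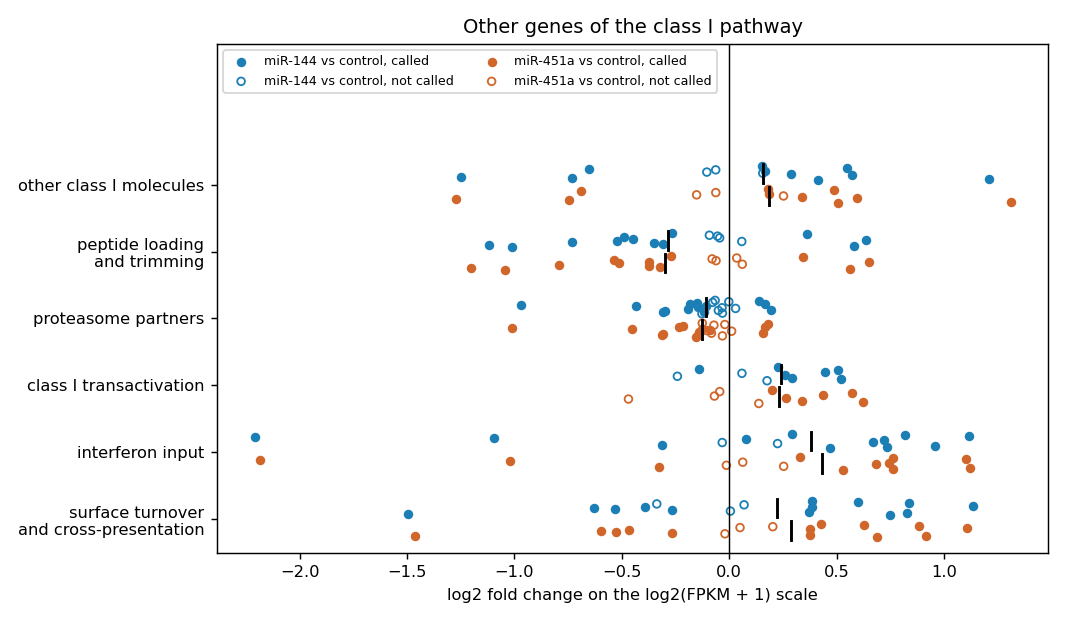
Log2 fold change against control on the log2(FPKM + 1) scale (horizontal axis) of the 90 tested genes in 6 lists, with filled points for genes called by limma, open points for the rest and black bars for each list's median. Peptide loading and trimming has its medians below 0 (-0.29 and -0.30), and interferon input above 0 (0.38 and 0.43) with Socs1 far to the left at -2.21 and -2.18.

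Within groups, the genes varied together in part. As deviations from the group means over the 15 samples, Tap2 and Psmb10 were most alike (Pearson r 0.83), followed by H2-D1 and Psmb10 (0.80), H2-D1 and Tap2 (0.79), Nlrc5 and Tap2 (0.76) and Psmb8 and Nlrc5 (0.75), whereas B2m had no partner above 0.32. Tap2 and Psmb10, which deviated together within groups, changed in opposite directions between them. The genes outside the list whose deviations were most like the mean of the 10 were Stard3, Cpsf1, Rac2, Sh3bp2 and Sema4d (r 0.94 to 0.95), as the highest values among all tested genes. These correlations are descriptions, since all genes of a sample share its library and depth.

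**Figure D5:**
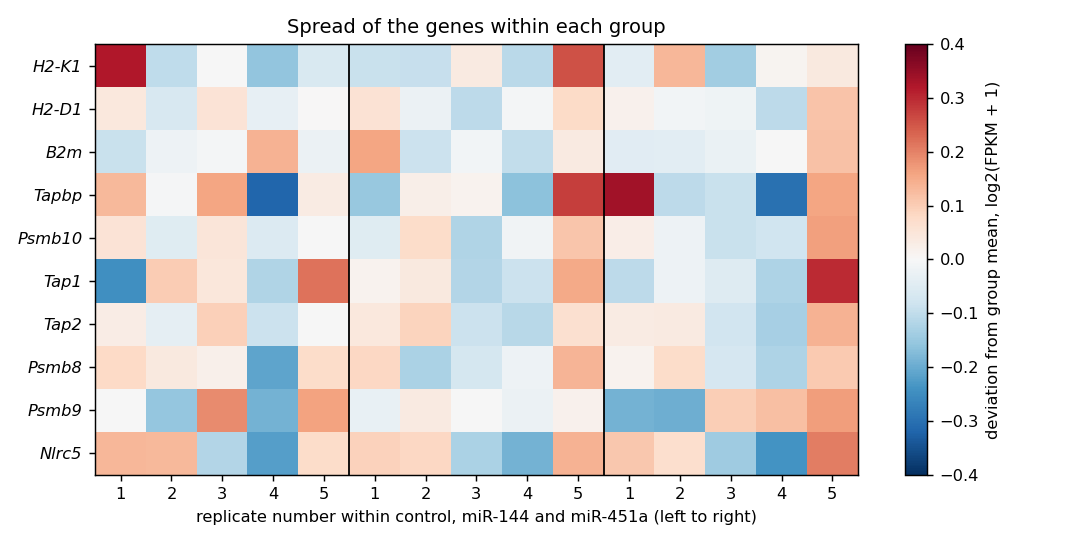
Deviation of each gene from its group mean on the log2(FPKM + 1) scale (colour) in the 15 samples (columns, replicate numbers 1 to 5 within control, miR-144 and miR-451a from left to right). Samples numbered 4 are low for most genes, with a mean deviation over the 10 genes of -0.13, -0.08 and -0.10, and samples numbered 5 of both miRNA groups are high, at 0.13 and 0.15.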

How the data were processed

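TAMs were analysed in 15 samples, 5 per group, with group and number taken from the sample titles. The authors deposited FPKM per gene. The submitters' processing notes name FastQC 0.11.2, STAR and StringTie, and the genome build is not given in the sources used here. Steps between low values implied 15.6 to 30.4 M fragments per sample, but only 36.7% to 48.9% of low values lay within 0.05 of a step, so count tests were not run. All 3 groups were fitted together with limma 3.58.1 (R 4.3.3) on log2(FPKM + 1) with a mean-variance trend, for genes averaging 1 FPKM or more, with Benjamini-Hochberg adjustment over these genes and a threshold of 0.05. The step was tested on simulated data. Fold changes given as folds are ratios of mean FPKM, whereas log2 values include the pseudocount of 1 and understate changes of low genes. Subunit ratios were compared with exact permutation tests. Identifiers were matched to GENCODE M21 on GRCm38 (99.67% matched), and promoters were taken from RefSeq (8 of the 10 genes matched). Named pathway genes came from the 4 called genes of each list with the largest change, with Psmb5, Psmb6, Psmb7, Psme1, Psme2, Irf1, Rfx5 and Ifng, and Pdia3, Ifngr2 and Ifnb1 were added after their values were seen. Of the genes this rule allows, 1 is not reported here. The genes, lists and tests were chosen with earlier results of these data known. Alternatives were other pseudocounts, filters, scalings and samples left out. Figures used Python 3.11.15 with matplotlib 3.10.9.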

Additional observations from a re-analysis of the deposited data

Results flagged for a closer look

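In 3 of 39 groups of 5 samples (10 genes and 3 subunit ratios in 3 groups), 1 sample lay far from the others by Dixon's test, where chance gives about 1.95. B2m in miR-451a replicate 5 was the highest of its group at 2402 FPKM, with the nearest sample at 2209 FPKM. Tap1 in the same sample was the highest at 16.9 FPKM, with the nearest at 13.3 FPKM. Psmb8 in control replicate 4 was the lowest of its group at 18.5 FPKM, with the nearest at 21.9 FPKM. Leaving out these samples changed no call for B2m, Tap1 or Psmb8.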

How the results depend on the processing

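Numbers of called genes, for the 10 genes and for the 6 lists pooled, stayed within 1.5 times under every alternative, including those that left out the samples numbered 4 or 5 in every group, which were chosen after seeing the data. The separate lists were not recomputed. The share of higher genes among all called genes depended on the scaling: it was 70.1% for miR-144 and 70.3% for miR-451a as deposited, 50.01% and 49.6% after median centring, 52.3% in both after quantile normalization and 76.5% and 77.3% as TPM. The calls for H2-K1, Psmb8 and B2m changed as given beside their values, and those of the other 7 genes held under every alternative. H2-K1 changed sign under quantile normalization, to 0.04 (adjusted p = 0.773) for miR-144 and 0.09 (adjusted p = 0.46) for miR-451a, and was called in neither fit. Correlations of deviations between same-numbered samples over all tested genes were over 0.1 in 8 of 15 pairs (mean 0.0760), against 14 of 60 for other numbers (mean -0.0189), and a sample was best correlated with its own number in 12 of 30 cases. Over the 10 genes, 10 of 15 pairs were over 0.1, with all 5 of miR-451a and control among them (0.366 to 0.811). Samples therefore shared deviations by number in part, but not in every pair, and were not taken as pairs. The replicate block left 9 of the 10 genes called in each comparison with control. For the subunit ratios, whose differences of 0.70 and 0.76 (Psmb8), 1.70 and 1.64 (Psmb9) and -0.79 and -0.71 (Psmb10) are the same with pairs by construction, the replicate block moved the adjusted p from 0.0119 to 0.0804, above the threshold, and 5 pairs allow no p below 0.0625. Depth per gene is unknown, as no counts were recovered.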

Other observations

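Samples numbered 4 held the lowest value of their group for 7, 5 and 6 of the 10 genes in control, miR-144 and miR-451a TAMs, and samples numbered 5 the highest for 1, 7 and 8. Tap2, Tapbp and Nlrc5 were lowest in the sample numbered 4 in all 3 groups. Leaving out the samples numbered 4 in every group left 5 genes higher and 4 lower in both comparisons with control, and so did leaving out those numbered 5.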
